A study of Mus musculus with 71 samples.

Results

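Tudor domain proteins of the piRNA pathway were followed at the RNA level through 6 genes, Tdrd1, Tdrd5, Tdrd6, Tdrd7, Tdrd9 and Tdrkh, in mouse oocytes made in culture and oocytes grown in the animal. The rows were taken by gene symbol, and all 6 had a row among the 15140 genes of the expression table. A Tudor domain is a fold that binds methylated arginines. In germ cells such proteins dock onto the methylated tails of PIWI proteins, the partners of piRNAs, which are small RNAs that silence transposons. Tdrd1, Tdrd5, Tdrd6, Tdrd7 and Tdrd9 gather in cytoplasmic granules of germ cells, and Tdrkh sits on mitochondria, where piRNA ends are trimmed. In mice, loss of several of these proteins is known for blocking sperm formation, while females without them are generally fertile.

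All 68 libraries used, in 33 groups of 71 samples in 34 groups, were polyA-selected and directional, from a C57BL/6 X 129 background. The stem cells behind the in vitro oocytes carried the reporters Blimp1-Venus and Stella-CFP. They were turned into primordial germ cell-like cells and cultured with gonadal somatic cells of E12.5 female embryos, and reporter-positive oocytes were sorted on day 11 or day 13. There were 2 libraries of wild type and of each knockout, with 4 knockouts on day 11 (Lhx8, Figla, Stat3 and Sub1) and 15 on day 13 (Hes6, Tbpl2, Thap7, Ybx3, Ell3, Foxr1, Mef2b, Ccnk, Sfr1, Tcf25, Kdm1b, Nobox, Noto, Dynll1 and Sohlh1). The knocked-out gene is given only in the sample names, and the labels do not say how many clones each line holds or whether libraries of a group came from separate cultures, so p-values measure the spread between libraries, which may be technical. Directly induced oocyte-like cells, or DIOLs, came from the stem cell line labelled MGA8 and were induced with the small molecule Shield1, which steadies proteins carrying a destabilising tag. The labels do not name the genes introduced, nor what the S of the DIOLs.S series stands for. DIOLs.S had 2 libraries on each of days 1, 3, 5, 7 and 14, DIOLs had 2 on each of days 5, 10, 15 and 25, and there were 2 libraries of MII DIOL, eggs matured after growth with gonadal somatic cells. GV oocytes, the grown oocytes of the ovary before meiosis resumes, had 3 libraries labelled incompetent and 3 labelled competent. The column names add 2w to the incompetent and 3w to the competent libraries, so competence and whatever that marks, such as age, cannot be told apart.

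Values are TPM, which correct for gene length and scale every library to the same total, so a TPM is a share of a library's RNA. Libraries of a group correlated at a Pearson r of 0.967 or more on log2(TPM + 1), except the pair of the Sohlh1 knockout at 0.873. Oocyte markers (8 genes, among them the zona pellucida gene Zp1) summed to 8446 TPM in day 11 and 58991 TPM in day 13 wild type. Of the 12 targeted genes present, 10 were at a lower mean by 1.69 to 351-fold. Sub1 was at 330.2 ± 20.4 against 464 ± 23.5 TPM (SD, n = 2) and Ccnk at 171 ± 10.5 against 168 ± 5.64 TPM, so both are named by label only, and 7 targets were not analysed here. In bulk RNA, fewer cells of a type and less RNA per cell cannot be told apart.

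Wild-type oocytes held much Tdrd1 and Tdrd5 RNA, moderate Tdrd9, Tdrkh and Tdrd7 RNA, and next to no Tdrd6 RNA. Tdrd1 stood at 290.6 and 299.4 TPM on day 11 and at 316.6 and 304.3 TPM on day 13. Tdrd5 stood at 319 and 325 TPM on day 11 and at 477 and 442 TPM on day 13. Tdrd1, a binder of PIWI proteins, made up 35.6% ± 0.698 and Tdrd5, a factor needed for the granules to form, 38.9% ± 0.476 (SD, n = 2) of the 6 genes' summed TPM on day 11. Tdrd9, a helicase of the pathway, was at 85.5 and 75.4 TPM on day 11 and at 145 and 131 TPM on day 13. Tdrkh was at 77.3 and 83.3 TPM and then at 114 and 117 TPM. Tdrd7, known for germ granule architecture and for RNA granules of the eye lens, was at 54.4 and 45.3 TPM and then at 38.1 and 52.1 TPM, with overlapping days. Tdrd6, a large scaffold best known from round spermatids, was listed at 0 in both day 11 libraries and at 0 and 0.55 TPM on day 13.

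A gene was called changed at an adjusted p under 0.05 (limma, Benjamini-Hochberg over all genes tested) and a log2 change of at least 1, and the changes are differences of log2(TPM + 1), which understates those of low genes. None of the 6 was called between day 13 and day 11 wild type, where 22.0% of all genes were. Tdrd9 differed by 0.77 (SE 0.10, adjusted p = 1.4e-06), Tdrd5 by 0.51 (SE 0.17, adjusted p = 0.02) and Tdrkh by 0.52 (SE 0.25, adjusted p = 0.094), with both day 13 libraries above both of day 11 for each. The median of all genes stood at -0.24 in that comparison. When libraries were rescaled by the median of ratios, a scaling that centres most genes, the all-gene median shifted by 0.24, and Tdrd9 was called at 1.20. Each library is divided by a size factor, on the log2 scale 0.15 on day 11 and -0.29 and -0.28 on day 13. Here and below, well-expressed genes move by more than the shift of the median, which low genes damp.

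**Figure D1:**
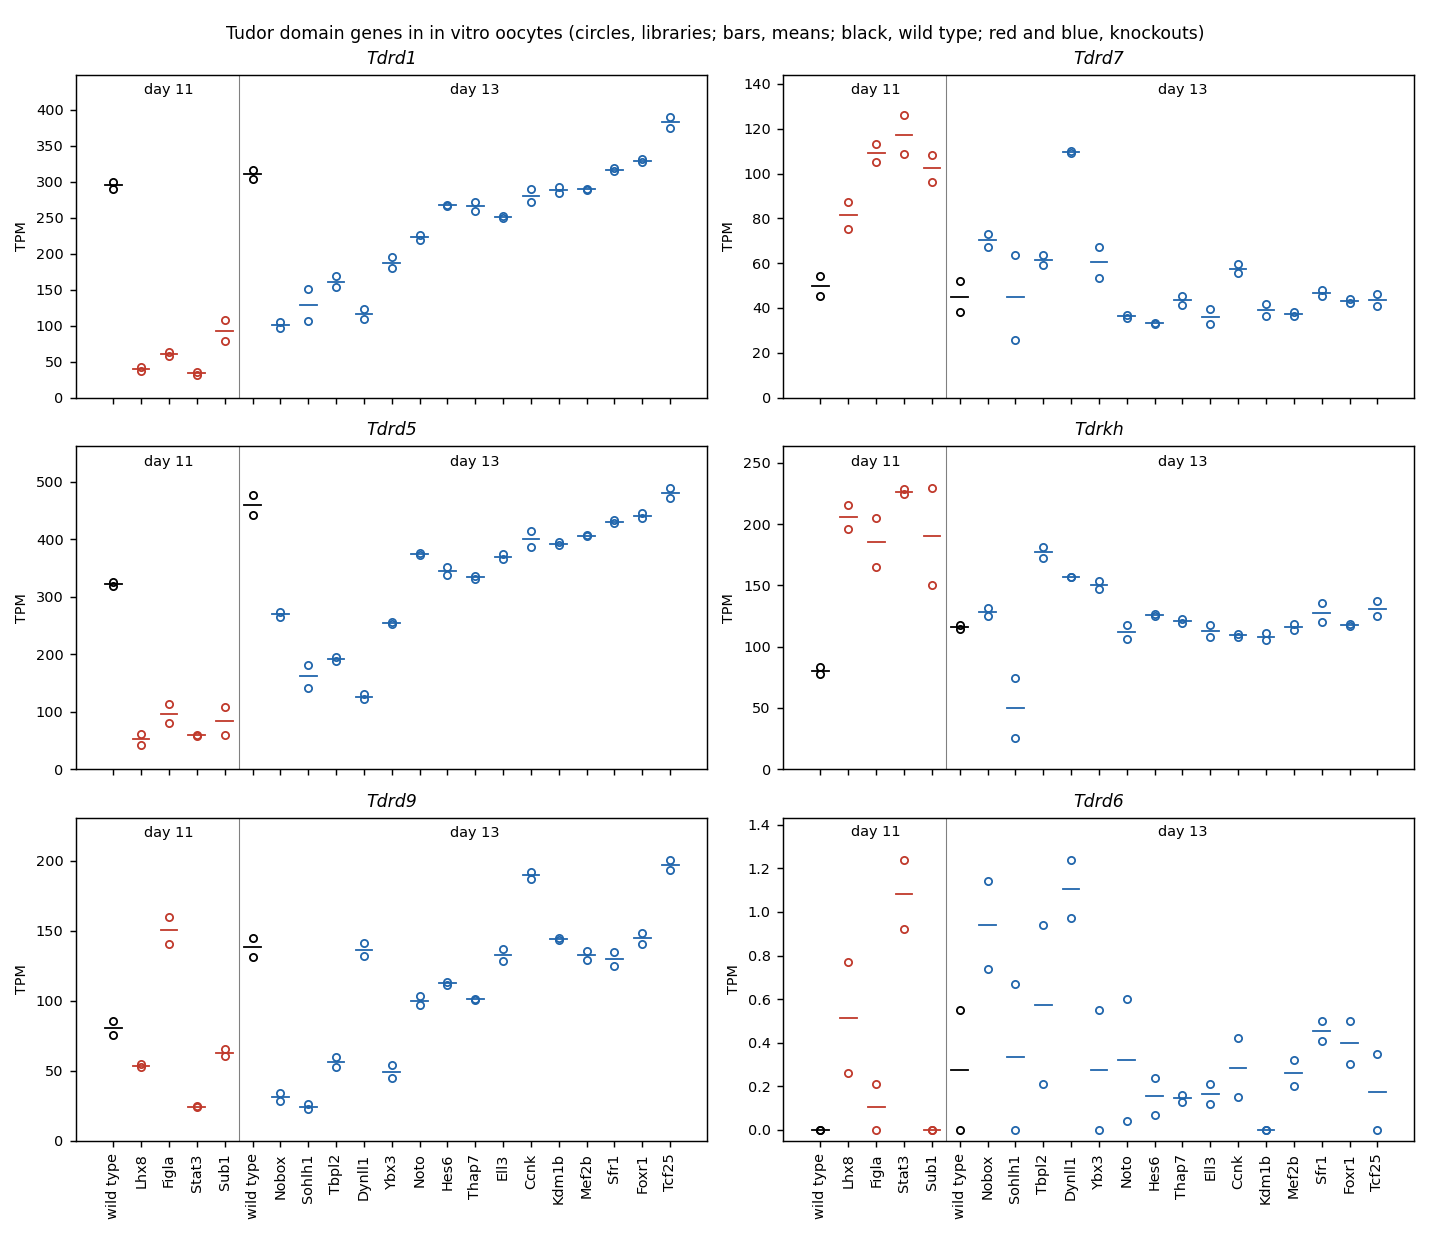
TPM of each of the 6 genes (vertical axis, linear) in every in vitro oocyte library, by group (horizontal axis); circles are libraries and bars group means, with day 11 left and day 13 right of the grey line. Tdrd1 and Tdrd5 lie below wild type in all 4 day 11 knockouts, where Tdrd7 and Tdrkh lie above it.

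Sequence context was read for the members. In the GENCODE M21 annotation (build GRCm38), Tdrd1 lies at chr19:56826209-56870012 on the plus strand, Tdrd5 at chr1:156255296-156303664 on the minus strand, Tdrd6 at chr17:43615335-43630299 on the minus strand, Tdrd7 at chr4:45965334-46034761 on the plus strand, Tdrd9 at chr12:111971559-112068854 on the plus strand and Tdrkh at chr3:94413273-94434668 on the plus strand. All 6 are protein coding, and the values cover whole genes. Of the distinct 50-base stretches in Tdrkh transcripts, 34.7% also occur, on either strand, in transcripts of another gene, all of these in Oaz3, which overlaps Tdrkh on the opposite strand. Whether strand was used in counting is not given in the sources used here, so Tdrkh levels are uncertain to that extent. Oaz3 itself ranged from 0 to 22.9 TPM in the in vitro libraries, against 25.3 to 229 TPM for Tdrkh. The same share was 1.80% for Tdrd5 and 0.092% for Tdrd1, and no such stretch was found for Tdrd6, Tdrd7 or Tdrd9. Tdrd9 is overlapped on the opposite strand by Rd3l, which was listed at 0 in every library.

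Several of the deleted factors are known to bind short DNA letters: Figla and Sohlh1 are basic helix-loop-helix factors, a class that binds E-boxes such as CACGTG, and Nobox and Lhx8 are homeobox factors, with TAATTG a known Nobox site. The 250 bases before an annotated start of Tdrd1, Tdrd9 and Tdrkh are printed, because these are the members with either word in a promoter window. Capitals mark CACGTG in Tdrd1 and Tdrd9 and TAATTG in Tdrkh, and each is written 5′ to 3′ on the plus strand, from RefSeq (GRCm38.p6).
Tdrd1, chr19:56825959-56826208: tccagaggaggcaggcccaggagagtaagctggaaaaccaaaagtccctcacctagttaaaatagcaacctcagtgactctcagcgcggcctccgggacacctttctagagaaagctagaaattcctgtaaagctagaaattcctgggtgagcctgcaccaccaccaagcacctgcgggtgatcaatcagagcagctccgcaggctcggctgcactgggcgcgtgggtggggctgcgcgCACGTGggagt
Tdrd9, chr12:111971309-111971558: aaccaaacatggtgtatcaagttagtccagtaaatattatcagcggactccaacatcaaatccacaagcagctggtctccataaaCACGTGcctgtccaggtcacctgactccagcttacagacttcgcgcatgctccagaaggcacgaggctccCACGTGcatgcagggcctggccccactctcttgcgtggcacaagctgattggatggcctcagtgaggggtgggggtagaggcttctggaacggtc
Tdrkh, chr3:94412994-94413243: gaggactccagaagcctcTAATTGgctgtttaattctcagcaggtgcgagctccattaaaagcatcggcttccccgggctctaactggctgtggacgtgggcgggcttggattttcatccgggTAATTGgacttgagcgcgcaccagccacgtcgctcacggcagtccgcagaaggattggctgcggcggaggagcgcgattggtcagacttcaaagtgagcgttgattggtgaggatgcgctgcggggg
Promoter entries were found for 5 of the 6 members, all but Tdrd6. Both words were searched on both strands, and no window held both. CACGTG occurs at -11 from the printed Tdrd1 start and at -165 and -95 from the Tdrd9 start, and 6.02% of 32851 promoter windows of the same length hold it. TAATTG occurs at -232 and -127 from the Tdrkh start, and 7.17% of the windows hold it. No Tdrd5 or Tdrd7 window held either word. The printed Tdrd1 start lies 4503 bases upstream of the start of the gene's principal transcript, whose own window held neither. Other words were searched as well. The STAT palindrome TTCNNNGAA lay in no window of these members, and 7.02% of all windows hold it. The general E-box CANNTG lay in a window of Tdrd1, Tdrd7, Tdrd9 and Tdrkh but not of Tdrd5, and 66.2% of all windows hold it. Matches of E2F, TATA, MYB and TAATTA words are not reported here. A match of letters is a description of the window, not of binding.

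Across the 19 knockouts, members were called both lower and higher, and Tdrkh in both directions. Over 114 values, 6 genes in 19 knockouts, 20 were called lower and 9 higher, and all 29 calls lay in 9 knockouts: Lhx8, Figla, Stat3, Sub1, Tbpl2, Ybx3, Nobox, Dynll1 and Sohlh1. With rescaled libraries 24 of the values were called lower and 4 higher. Of all genes, 17.9% (Ybx3) to 48.2% (Dynll1) were called in these 9 knockouts. Tdrd1 and Tdrd5 were each called lower in 7 knockouts and Tdrd9 in 5. Tdrd7 was called higher in 4, Tdrkh higher in 4 and lower in 1, and Tdrd6 higher in 1. In the other 10 knockouts no member was called, and few genes of any kind were: 6.14% in the libraries labelled Ccnk, 3.19% without Kdm1b, 2.74% without Thap7, 2.23% without Noto, 1.88% without Foxr1, 1.24% without Sfr1, 1.08% without Mef2b, 0.593% without Hes6, 0.504% without Tcf25 and 0.114% without Ell3. Knockouts of 1 day share the same 2 wild-type libraries, so their changes are not independent of each other.

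**Figure D2:**
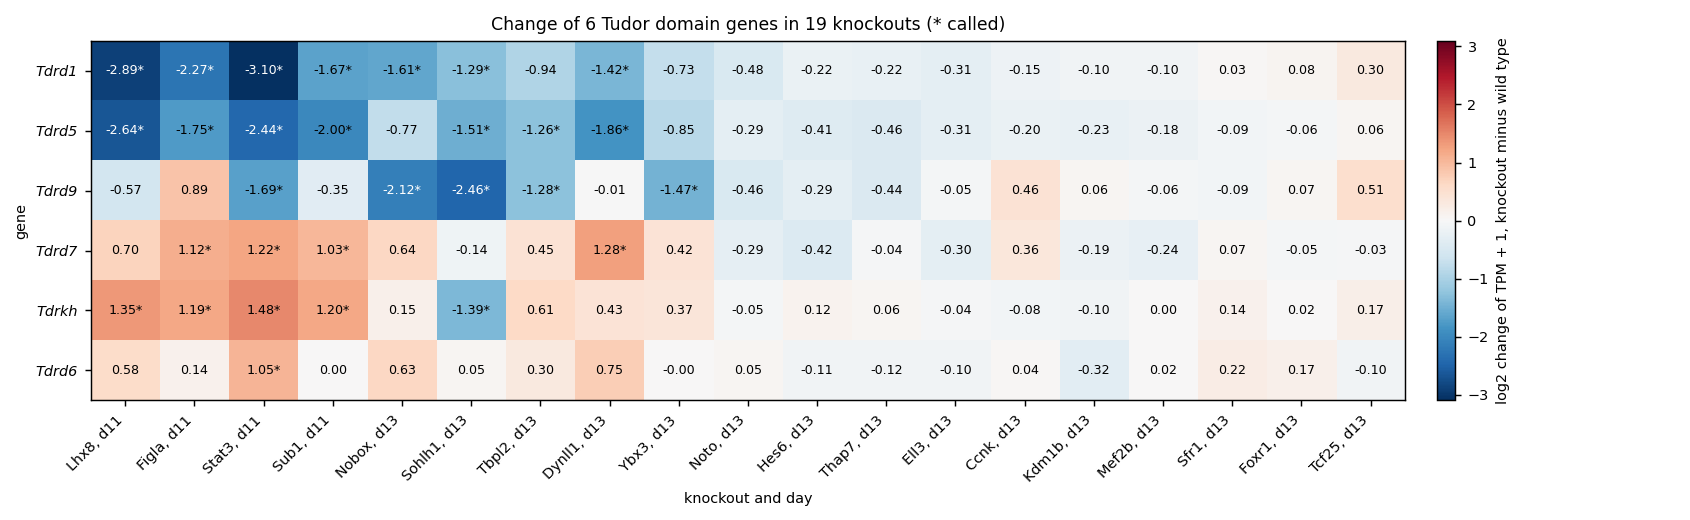
Log2 change of TPM + 1 of each gene (rows) in each knockout against wild type of the same day (columns); colour and number give the change, red higher and blue lower, and an asterisk marks a call. The called changes run from -3.10 for Tdrd1 without Stat3 to 1.48 for Tdrkh without Stat3, and the 10 columns at the right hold no asterisk.

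On day 11, Tdrd1 and Tdrd5 fell and Tdrkh rose in all 4 knockouts, and Tdrd7 rose in 3. Tdrd1 was at 36.0 and 31.3 TPM without Stat3, a transcription factor of cytokine signalling, at 41.9 and 36.3 TPM without Lhx8, at 63.9 and 57.3 TPM without Figla and at 108 and 78.7 TPM in the libraries labelled Sub1. Each of these libraries lay below both wild-type ones. The log2 changes were -3.10 (Stat3), -2.89 (Lhx8), -2.27 (Figla) and -1.67 (Sub1), each with SE 0.12, the last with adjusted p = 3.3e-11. Tdrd5 was at 42.7 and 60.7 TPM without Lhx8, at 59.6 and 57.7 TPM without Stat3, at 108 and 59.1 TPM without Sub1 by label and at 113 and 80.3 TPM without Figla. Again no knockout library reached wild type, and the changes were -2.64 (Lhx8), -2.44 (Stat3) and -1.75 (Figla), each with SE 0.17, while the mean in the libraries labelled Sub1 was 3.86-fold lower (adjusted p = 6.4e-10, limma). The share of all genes called was 21.9% for Lhx8, 28.1% for Figla, 27.3% for Stat3 and 22.8% for Sub1.

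Tdrkh, the mitochondrial Tudor protein that recruits the piRNA trimmer, went the other way in the same libraries. It was at 224 and 228 TPM without Stat3, at 196 and 215 TPM without Lhx8, at 151 and 229 TPM in the libraries labelled Sub1 and at 205 and 165 TPM without Figla, all above both wild-type libraries. The changes were 1.48 (Stat3), 1.35 (Lhx8), 1.20 (Sub1) and 1.19 (Figla), each with SE 0.25 and the last 2 with adjusted p = 0.00028 and 0.00027 (limma). The Sub1 libraries lay far apart, and without replicate 2, the higher, the change was 0.90 and not called. With rescaled libraries the Figla change was 0.93, also not called. Tdrd7 was at 126 and 109 TPM without Stat3, at 113 and 105 TPM without Figla and at 108 and 96.4 TPM in the libraries labelled Sub1, and the groups did not overlap wild type. It rose by 1.22, 1.12 and 1.03, each with SE 0.23. In the Lhx8 knockout Tdrd7 was at 75.1 and 87.5 TPM, a change of 0.70 (adjusted p = 0.016) that was not called. The Figla and Sub1 calls of Tdrd7 lay near the limit: rescaled they were 0.86 and 0.92, and without replicate 2 of wild type 0.99 and 0.90. Without replicate 1 of Sub1 the Tdrd7 change was 0.94.

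The makeup of the family shifted with these changes. In day 11 wild type Tdrkh was 9.70% ± 0.491 (SD, n = 2) of the summed TPM of the 6 genes, and it was 49.1% ± 2.09 without Stat3, 47.6% ± 0.107 without Lhx8, 35.8% ± 11.2 in the libraries labelled Sub1 and 30.7% ± 0.818 without Figla. Tdrd1 went from 35.6% to between 7.28% (Stat3) and 17.5% (Sub1). The summed TPM of the 6 was 828 ± 1.22 TPM in wild type and 432 ± 29.0 TPM without Lhx8, 461 ± 13.9 without Stat3, 532 ± 11.2 for Sub1 and 602 ± 75.6 without Figla.

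Tdrd9 differed between the day 11 knockouts in 5 of 6 direct pairs. Without Figla it was at 160 and 140 TPM, above wild type (0.89, not called), and without Stat3 at 23.9 and 24.7 TPM, at a change of -1.69 (SE 0.10, adjusted p = 4.9e-13, limma). The Lhx8 knockout, at 54.8 and 52.6 TPM, and the libraries labelled Sub1, at 65.4 and 60.2 TPM, lay between, at -0.57 and -0.35 from wild type, neither called. Tested directly, Tdrd9 without Figla was above that without Stat3 by 2.58 and above that in the Sub1 libraries by 1.24, and Lhx8 minus Figla was -1.46. Lhx8 minus Stat3 was 1.11 and Stat3 minus Sub1 was -1.33, and these 5 were called (adjusted p at most 7.1e-08, limma). Lhx8 minus Sub1 was -0.22 and not called. Tdrd1 also differed: the Lhx8 knockout minus the libraries labelled Sub1 was -1.22 and Stat3 minus Sub1 was -1.43, with no overlap of libraries. Without replicate 1 of Sub1 the first of these was -0.99 and not called. Shares of all genes called in these direct comparisons were 16.3% for Figla against Stat3, 11.9% for Lhx8 against Figla, 15.8% for Figla against Sub1, 3.85% for Lhx8 against Stat3, 6.05% for Stat3 against Sub1 and 5.60% for Lhx8 against Sub1.

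Tdrd6 stayed near the floor of the table. Of 42 in vitro libraries it was listed at 0 in 11 and under 1 TPM in 39, and the highest was 1.24 TPM. The Stat3 knockout held 1.24 and 0.92 TPM against 0 in both wild-type libraries, a change of 1.05 on the log2(TPM + 1) scale (adjusted p = 0.0046, limma), and no fold is given against 0. Without replicate 1 of Stat3 it was 0.94, and rescaled it was 0.90, neither called.

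On day 13, 5 knockouts changed members, in differing sets. Without Sohlh1, a helix-loop-helix factor of early oocytes, 4 members fell, where 35.7% of all genes were called, and the median change of the 6 was -1.34 beside 0.08 for all genes. Tdrd9 was at 22.5 and 26.3 TPM against 145 and 131 in wild type, a change of -2.46 (SE 0.10, adjusted p = 2.4e-16). Tdrd5 was at 182 and 142 TPM (-1.51) and Tdrd1 at 150 and 107 TPM (-1.29), below wild type in both libraries. Tdrkh was at 74.5 and 25.3 TPM, a change of -1.39 that was -0.63 and not called without replicate 2. Tdrd7 was at 63.8 and 25.6 TPM and overlapped wild type. Replicate 2 held the lower value of Tdrkh, Tdrd7, Tdrd5 and Tdrd1. Its macrophage markers summed to 2159 TPM and its stromal markers to 1934 TPM, against 36.8 and 90.3 TPM in replicate 1 and at most 86.0 and 11.9 TPM in day 13 wild type. Their part in the result was not tested.

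Without Nobox, a homeobox factor of primordial oocytes, Tdrd9 and Tdrd1 fell, where 38.5% of genes were called. Tdrd9 was at 34.0 and 28.2 TPM (-2.12, SE 0.10) and Tdrd1 at 97.0 and 105 TPM (-1.61, SE 0.12), with no overlap with wild type. Tdrd5 was at 265 and 274 TPM, a change of -0.77 that was not called, and it was called at -1.35 with rescaled libraries. In the Tbpl2 knockout (29.2% of genes called), which lacks an oocyte TBP-like transcription factor, Tdrd9 was at 59.6 and 52.8 TPM (-1.28) and Tdrd5 at 187 and 194 TPM (-1.26). Tdrd1, at 168 and 154 TPM there, had a change of -0.94, not called, and was called at -1.38 when rescaled. In the Ybx3 knockout (17.9% of genes called), which lacks a cold shock protein that binds nucleic acids, only Tdrd9 was called, at 44.8 and 54.0 TPM and -1.47. Rescaled, Tdrd5 and Tdrd1 were called there too, at -1.19 and -1.07. Rescaling moved the all-gene median by -0.44 for Nobox, -0.34 for Tbpl2 and -0.20 for Ybx3.

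The Dynll1 knockout, without a dynein light chain, had 48.2% of all genes called, and Tdrd5 and Tdrd1 fell while Tdrd7 rose. Tdrd5 was at 122 and 130 TPM (-1.86) and Tdrd1 at 123 and 109 TPM (-1.42), below wild type. Tdrd7 was at 109 and 110 TPM and rose by 1.28 (SE 0.23). The median of all genes stood at 0.69 in this comparison, and with rescaled libraries, which moved that median by -0.47, the Tdrd7 change was 0.64 and not called. Tdrd9, at 141 and 132 TPM, overlapped wild type (-0.01). For Tdrd9, Nobox minus Dynll1 was -2.10 and Tbpl2 minus Dynll1 was -1.27, and Tdrd5 was higher without Nobox than without Dynll1 by 1.09 (adjusted p = 1.3e-05, limma). The libraries did not overlap in these 3 pairs. The shares of all genes called were 21.2% for Nobox against Dynll1 and 18.2% for Tbpl2 against Dynll1. Between Nobox and Tbpl2 no member was called (17.1% of genes were), with Tdrd9 at -0.84. Tdrkh was higher without Nobox than without Sohlh1 by 1.54 (30.0% of genes called), and by 0.77, not called, without replicate 2 of Sohlh1.

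The other 10 day 13 knockouts had no called member. Tdrd1 means there ran from 223 TPM (Noto) to 383 TPM (Tcf25) and Tdrd5 means from 334 TPM (Thap7) to 480 TPM (Tcf25). Tdrkh means ran from 108 TPM (Kdm1b) to 131 TPM (Tcf25) and Tdrd9 means from 99.96 TPM (Noto) to 197 TPM (Tcf25). The Tcf25 knockout held the highest mean Tdrd1, Tdrd5 and Tdrd9 of all in vitro groups, with Tdrd9 at 201 and 193 TPM, 0.51 above wild type and not called. Its Tdrd5 libraries overlapped those of day 13 wild type. With no fold threshold, Tdrd9 was called higher without Tcf25 and in the libraries labelled Ccnk (0.46). Tdrd9 was then called lower without Noto (-0.46) and without Thap7 (-0.44), and Tdrd1 lower without Noto (-0.48). No other member was called in these 10 knockouts on that rule. Ordered by mean over the 21 in vitro groups, neighbours were separate in all their libraries in 14 of 20 steps for Tdrd1, 12 for Tdrd5, 9 for Tdrd9, 8 for Tdrkh, 5 for Tdrd7 and 0 for Tdrd6. The groups were sorted by these same values, and the steps were not counted over all genes. These counts therefore describe the order only and do not set the members apart from other genes.

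Markers of stage and of other cells moved with these groups. The oocyte marker sum was 917 to 1741 TPM in the 4 day 11 knockouts against 8446 in wild type, and the meiotic prophase sum (12 genes, such as Sycp3) was 4428 to 6062 TPM against 1854. In the day 13 knockouts the oocyte sum was 1629 TPM without Dynll1, 1718 without Sohlh1, 2870 without Nobox, 11341 without Tbpl2 and 33113 without Ybx3, against 58991 in wild type. Macrophage markers (9 genes) summed to 1667 to 1685 TPM in the Sub1 libraries, 304 to 329 in Figla, 311 to 315 in Lhx8 and 23.5 to 27.5 in Stat3, against 23.9 to 43.7 in day 11 wild type, where C1qa, C1qc, Ctss, Csf1r, Adgre1 and Ptprc were at 0. Granulosa markers (10 genes, with Fshr at 0 in all of these but day 13 wild type) summed to 701 to 1454 TPM in the day 11 knockouts and 883 to 911 TPM in wild type. On day 13 they summed to 33.6 to 35.3 TPM in wild type and to 1212 to 1263 without Ybx3, 825 to 916 without Tbpl2, 651 to 673 without Nobox, 315 to 352 without Dynll1 and 148 to 261 without Sohlh1. Macrophage markers there summed to 194 to 203 TPM without Ybx3 and 190.4 to 190.9 without Dynll1, against 68.9 to 86.0 in wild type. They were below wild type without Tbpl2, at 26.15 to 31.0 TPM, and without Nobox, at 37.9 to 53.3 TPM. The 2 libraries without Sohlh1 lay on either side, at 36.8 and 2159 TPM. Stromal markers (7 genes) summed to 151.6 to 304 TPM in the day 11 knockouts against 85.3 to 116 in wild type. On day 13 they were at 336 to 339 TPM without Tbpl2, 171 to 181 without Ybx3, 103 to 109 without Nobox and 89.4 to 94.1 without Dynll1, against 8.27 to 11.9 in wild type. Endothelial markers (4 genes) were at 63.8 to 86.1 TPM without Figla against 2.75 to 4.20 in day 11 wild type, and at 101 to 116 without Sohlh1 and 65.9 to 81.4 without Nobox against 8.43 to 12.3 in day 13 wild type. The part of these markers in the members' changes was not tested.

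Other genes of the pathway moved in both directions in the same knockouts. Of 14 PIWI and piRNA genes tested, 3 were called higher and 3 lower without Lhx8, 5 and 4 without Figla, 4 and 3 without Stat3, and 5 and 2 in the libraries labelled Sub1. The shares of all genes called were 21.9%, 28.1%, 27.3% and 22.8% in the same order. The median change of the 14 was 0.18, 0.41, 0.27 and 0.26, beside 0.07, 0.20, 0.09 and 0.02 for all genes. Gtsf1, a zinc finger partner of PIWI proteins, was at 766 and 682 TPM in day 11 wild type and at 40.3 to 130 TPM in the 4 knockouts, with changes of -2.69 to -4.09. Exd1, a piRNA biogenesis factor, fell by 1.26 to 2.39 in the same 4. Gpat2, a mitochondrial acyltransferase-like protein needed for piRNA production, was at 164 and 161 TPM in wild type and at 568 to 926 TPM in the 4 knockouts, higher by 1.83 to 2.48. Mybl1, the transcription factor that drives pachytene piRNA genes in testis, was higher by 1.04 to 1.52. Btbd18, a nuclear factor of pachytene piRNA loci, was higher by 2.08 to 4.41. On day 13, 2 of the 14 were called higher and 2 lower without Nobox (38.5% of all genes called). The counts were 4 higher and 1 lower without Tbpl2 (29.2%), 2 and 0 without Ybx3 (17.9%), and 7 and 2 without Dynll1 (48.2%).

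Of 5 other Tudor genes tested, Rnf17, a germ granule protein with many Tudor domains, was called higher in 8 of the 9 knockouts that changed members, in which 17.9% to 48.2% of all genes were called. Of the other 4, Tdrd3 was lower without Lhx8 (-1.29) and Dynll1 (-1.15), Smndc1 was higher without Dynll1 (1.48), and no further call was made in the 9. Rnf17 was at 48.1 and 55.1 TPM in day 11 wild type and at 114 to 170.3 TPM in the day 11 knockouts, with changes of 1.24 to 1.69. The exception was Sohlh1, at 29.9 and 17.7 TPM against 33.0 and 31.5 TPM. In that knockout, where 35.7% of all genes were called, 5 of the 14 piRNA genes were lower and 1 higher: Pld6, a mitochondrial enzyme of the phospholipase D family that cuts piRNA precursors, fell by 3.03, the trimmer Pnldc1 by 1.94, Piwil2 by 1.44, Exd1 by 1.43 and Piwil1 by 1.08, while Btbd18 rose by 3.62. Piwil2 was at 122 and 63.4 TPM there against 249 and 231 TPM. Among 3 genes of symmetric arginine methylation, which prepares PIWI tails for Tudor binding, the cofactor Wdr77 was called higher in 7 of the 9 knockouts, and the methyltransferase Prmt5 only without Dynll1 (1.03). The third, Riok1, was called lower in the libraries labelled Sub1 (-1.20), without Nobox (-1.02) and without Sohlh1 (-1.04).

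**Figure D3:**
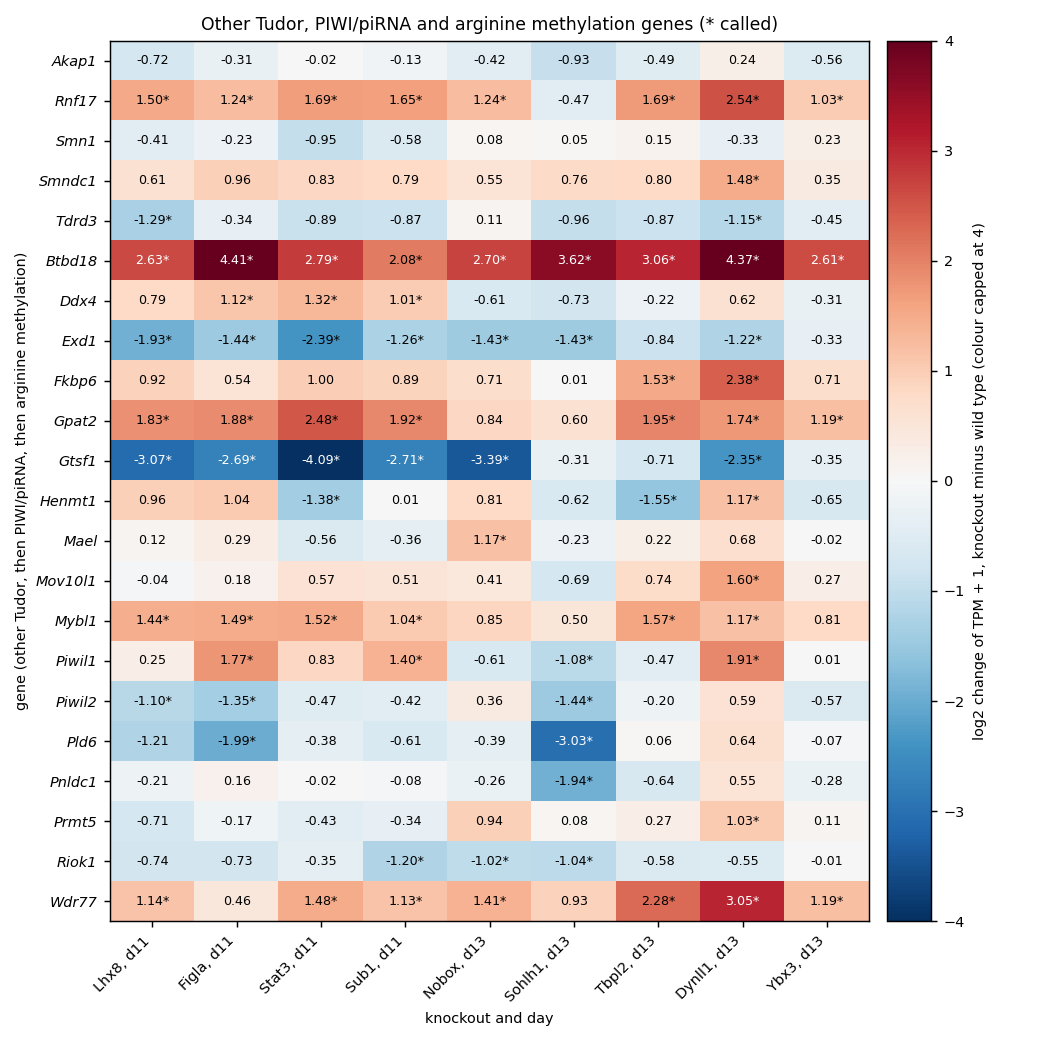
Log2 change of TPM + 1 of 22 pathway genes (rows: other Tudor genes, PIWI and piRNA genes, arginine methylation genes) in the 9 knockouts with a called member (columns), against wild type of the same day; an asterisk marks a call and the colour scale stops at 4. Rnf17, Btbd18 and Wdr77 are red across most columns, and Gtsf1 and Exd1 are blue in the 4 day 11 columns.

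Most members rose in the first days of the direct induction series. The series holds no uninduced library, so induction and time in culture cannot be told apart. In DIOLs.S, 4 of the 6 rose between day 1 and day 3, where 20.9% of all genes were called, and the median change of the 6 was 1.51 beside 0.14 for all genes. Tdrd5 went from 10.4 and 12.5 TPM on day 1 to 101 and 88.6 TPM on day 3, a change of 2.95 (SE 0.15). Tdrd1 went from 19.2 and 27.2 to 133 and 120 TPM (2.41, SE 0.12), Tdrd7 from 12.9 and 13.1 to 47.4 and 37.6 TPM (1.63, SE 0.11) and Tdrkh from 24.6 and 20.4 to 62.6 and 57.9 TPM (1.39, SE 0.12). In every case both day 3 libraries were above both of day 1, with adjusted p at most 1.2e-08 (limma). Tdrd9 was at 4.82 and 4.69 TPM on day 1 and at 9.56 and 7.21 TPM on day 3, a change of 0.69 (adjusted p = 0.0084, limma) that was not called. It was at 24.5 and 27.7 TPM on day 5, a rise of 1.54 (7.95% of genes called), and it fell by 1.39 to 7.13 and 12.2 TPM on day 7 (8.06% called). Tdrkh also rose to day 5, by 1.20, to 142 and 138 TPM. The meiotic prophase sum was highest on day 5 too, at 2841 TPM against 1238 on day 3 and 1101 on day 7. Granulosa markers differed between the day 7 libraries, at 2078 and 483 TPM for replicates 1 and 2, and their part in the day 7 values was not tested.

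By day 14 Tdrd5 was at 217 and 229 TPM, 4.18 above day 1 (53.3% of genes called), and Tdrd1 at 180 and 185 TPM, 2.94 above. Tdrkh, at 71.2 and 65.5 TPM, was 1.57 above day 1, and Tdrd9, at 11.8 and 13.9 TPM, was 1.26 above. Tdrd7 was at 26.2 and 27.6 TPM, higher than day 1 in both libraries by a change just under 1 that was not called. It was called at 1.30 with rescaled libraries and at 1.05 with a pseudocount of 0.1. No member was called between day 14 and day 7, where 40.5% of all genes were.

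In the DIOLs series the first day sampled was day 5, and Tdrd1 and Tdrd5 were already high. Tdrd1 was at 223 and 218 TPM on day 5 and at 260 and 269 TPM on day 25, with no step called. Tdrd5 went from 151 and 159 to 310.4 and 316 TPM, a change of 1.01 (44.3% of genes called) that was 0.98 without replicate 1 of day 5 and just under 1 without replicate 2 of day 25. Tdrd9 went from 5.21 and 4.52 TPM on day 5 to 25.7 and 26.3 on day 10, a rise of 2.20 (SE 0.21, 23.1% of genes called), and stood at 14.6 and 16.3 TPM on day 25, 1.49 above day 5. Tdrd6 was at 0.05 TPM in both day 5 libraries and at 1.80 and 1.51 TPM on day 25, higher by 1.34 (adjusted p = 4e-06, limma), with levels still under 2 TPM. No member was called from day 10 to day 15 (3.64% of genes called) or from day 15 to day 25 (7.57%). On the shared day 5, Tdrd9 was higher in DIOLs.S by 2.21 (11.9% of genes called), and the other 5 members were not called. The meiotic prophase sum was also higher there, 2841 against 1217 TPM, as was that of granulosa markers, 363 to 366 against 19.3 to 28.7 TPM, while stromal markers were lower, 66.5 to 73.0 against 419 to 421 TPM. The part of these in the Tdrd9 difference was not tested.

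**Figure D4:**
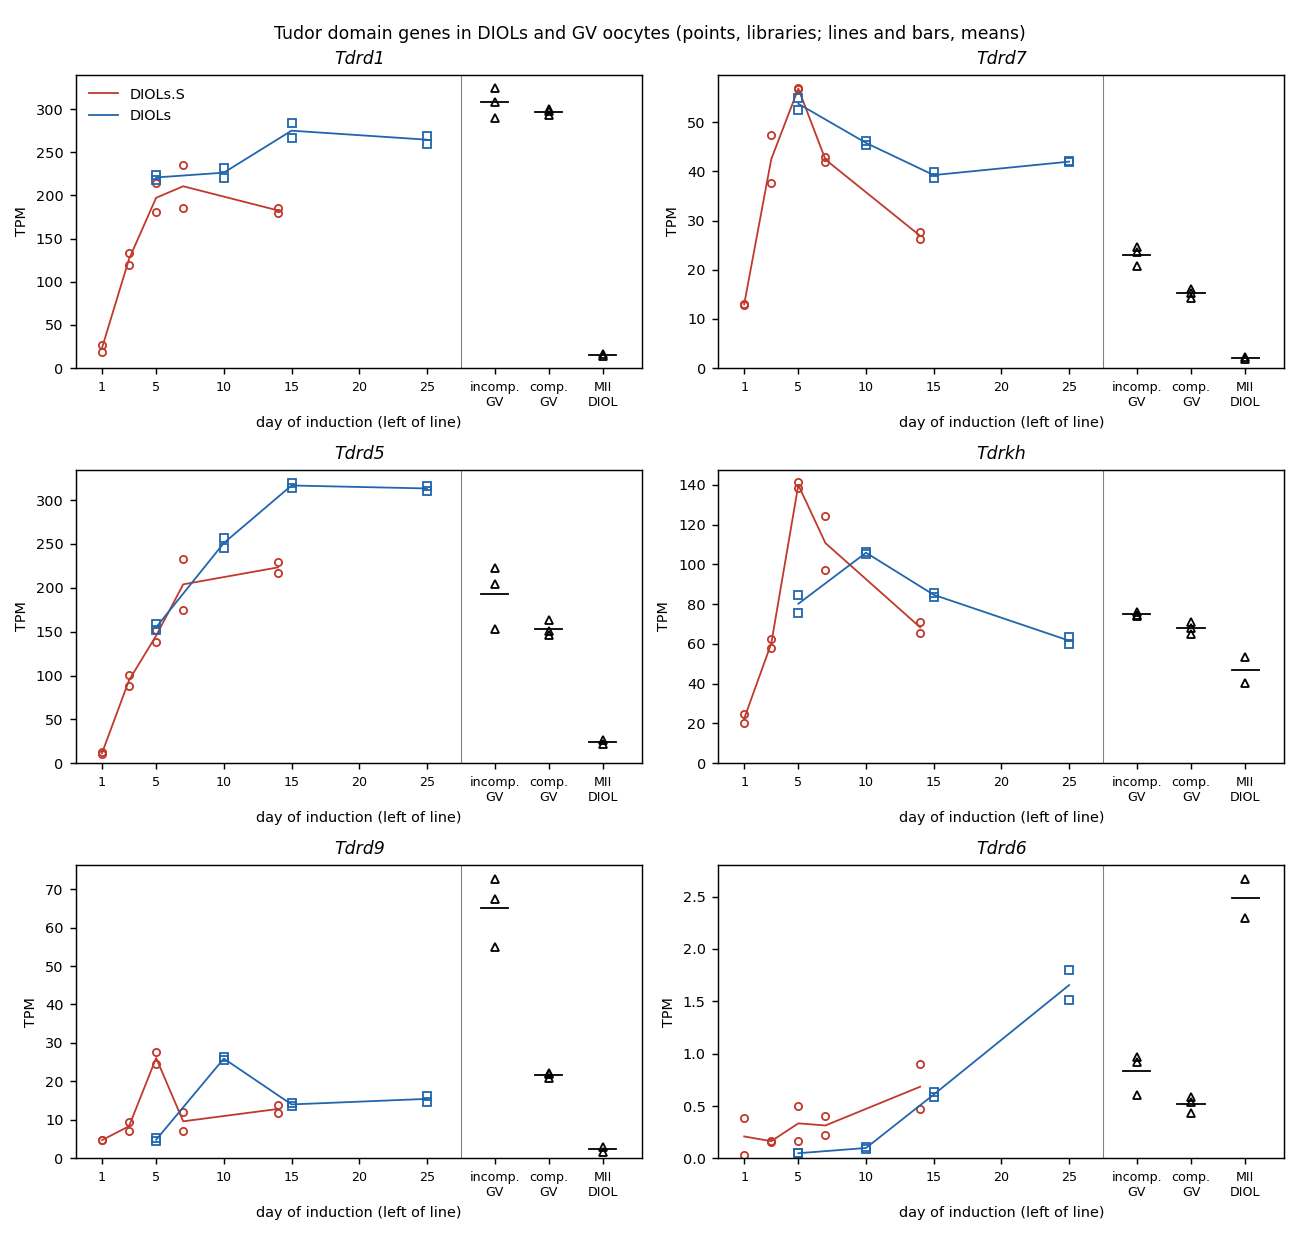
TPM of each gene (vertical axis, from 0) by day of induction for DIOLs.S (red circles) and DIOLs (blue squares), with GV oocytes and MII DIOL (black triangles) right of the grey line; points are libraries, and lines and bars are means. Tdrd9 reaches 55.0 to 72.7 TPM in incompetent GV oocytes and at most 27.7 TPM in any DIOL library, and all members but Tdrkh and Tdrd6 are near the bottom in MII DIOL.

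Grown oocytes of the ovary gave a reference for these levels. Tdrd1 was at 324, 309 and 290.1 TPM in incompetent and at 293, 299.5 and 297 TPM in competent GV oocytes, with overlapping values. Tdrd5 was at 223, 204 and 153 TPM and at 146, 164 and 151 TPM, overlapping as well. Tdrd9 was the 1 member called between them (9.96% of genes called): it was at 72.7, 67.4 and 55.0 TPM in incompetent and at 22.0, 20.9 and 22.2 TPM in competent oocytes, a change of -1.53 (SE 0.17, adjusted p = 3.1e-07, limma). Tdrd7 was at a change of -0.56, at 14.4 to 16.1 against 20.8 to 24.7 TPM, and was not called. Of the 14 piRNA genes, 4 fell in competent oocytes: Piwil2 by 2.92, Gpat2 by 2.39, the helicase Ddx4 by 1.99 and Pnldc1 by 1.21.

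Between late DIOLs and incompetent GV oocytes, Tdrd9 was the 1 member called. Its difference was -1.99 for DIOLs of day 25 (26.3% of genes called) and -2.25 for DIOLs.S of day 14 (31.1% called). Both DIOL groups lay below every GV library. The other members differed from incompetent oocytes by -0.75 to 0.84, none called. The largest were Tdrd7 in DIOLs of day 25, at 42.0 and 42.0 TPM (0.84, adjusted p = 5.3e-07), and Tdrd1 in DIOLs.S of day 14 (-0.75). In vitro oocytes of day 13 were fitted apart, so their Tdrd9 of 138 ± 9.92 TPM (SD, n = 2) stands beside the 65.0 ± 9.11 TPM (n = 3) of incompetent oocytes with no test.

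In MII DIOL, the matured eggs, 4 members stood at low TPM. The libraries were polyA-selected, so RNA without a polyA tail is not covered by these values. Tdrd1 was at 15.8 and 14.2 TPM, Tdrd5 at 26.8 and 21.4, Tdrd7 at 2.29 and 1.93 and Tdrd9 at 1.73 and 3.08 TPM, each below every DIOL library of day 25. Against DIOLs of day 25 the changes were -4.05, -3.65, -3.79 and -2.30, where 57.6% of all genes were called and the medians were -2.98 for the 6 and -0.39 for all genes. The differences from competent GV oocytes were -4.22, -2.63, -2.38 and -2.77 (50.2% called). Tdrkh was at 53.2 and 40.5 TPM against 59.8 and 63.5 on day 25 and 64.8 to 71.0 in competent oocytes, and was not called in either. It made up 50.2% ± 2.38 (SD, n = 2) of the summed TPM of the 6 genes in MII DIOL and 8.82% ± 0.204 in DIOLs of day 25. Tdrd6 was at its highest of all groups, 2.67 and 2.30 TPM, and was called higher than in competent GV oocytes (0.43 to 0.59 TPM) by 1.20. Rescaled, which shifted the all-gene median by 0.39, Tdrd6 was also called against DIOLs of day 25, at 1.15. The log2 size factors were -1.004 and -0.977 in MII DIOL and -0.007 and -0.015 in DIOLs of day 25. They were -0.132 to -0.090 in competent GV oocytes. Rescaling therefore raises MII DIOL levels against both groups and makes the falls above smaller. The TPM values do not settle whether Tdrkh was lower or higher in MII DIOL. Apart from Tdrd6, no member's call changed there when rescaled. Of the 14 piRNA genes 9 fell against DIOLs of day 25 and 2 rose, with a median of -3.22 beside -0.39 for all genes. Gtsf1 went from 977 and 963 to 4.27 and 12.7 TPM, and Mybl1 from 4.64 and 4.48 to 91.0 and 91.5 TPM. Granulosa markers summed to 255 and 621 TPM in MII DIOL against 4.89 and 9.59 TPM in DIOLs of day 25, and their part was not tested.

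Across group means of log2(TPM + 1), Tdrd1 and Tdrd5 had the highest Pearson r of any pair, 0.95 over the 21 in vitro groups and 0.93 over the 12 DIOL and GV groups. By Spearman's rho they stood at 0.93 and 0.63, and in the DIOL and GV groups the pairs Tdrd7 with Tdrkh (0.75) and Tdrd1 with Tdrd9 (0.73) then ranked above them. Tdrd7 ran against both in the in vitro groups (r of -0.82 with Tdrd1 and -0.83 with Tdrd5) and had r of 0.77 and 0.70 with them in the other fit, where Spearman's rho was only 0.12 and 0.31. Tdrd9 and Tdrkh had an r of -0.01 in the in vitro groups. Group means of a fit share wild-type or other neighbouring groups, and the r values are descriptions over few points. The nearest genes were sought among those with a mean of at least 10 TPM, leaving out predicted genes and pseudogenes by name. Those closest to Tdrd1 in vitro were Lpcat1 (0.98), Natd1 (0.98) and Exd1 (0.97), the last being a piRNA gene named above. Closest to Tdrd5 were Akap12 and Farp1 (both 0.98) and, among the nearest 5, the zona pellucida gene Zp1 (0.97). Closest to Tdrd7 were Dot1l, Nelfb and Nup153 (all 0.98), to Tdrkh Garnl3 (0.97) and to Tdrd6 Shisa2 (0.80). The r values of Tdrd6 rest on levels near the floor. It was under 1 TPM in 39 of 42 in vitro and 22 of 26 DIOL and GV libraries. In the DIOL and GV groups the closest were Shtn1 for Tdrd1 (0.98), Ppm1h for Tdrd5 (0.99), Clec16a for Tdrd7 (0.98), Poln for Tdrkh (0.92), Zc3h3 for Tdrd6 (0.92) and Baiap3 for Tdrd9 (0.87).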

How the data were processed

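The authors deposited 1 table of TPM values per gene symbol and library. STAR 2.6.0, featureCounts 1.6.0 and the build mm10 are named in the submitters' processing notes. Whether strand was used in counting, and how shared reads were treated, is not given in the sources used here. TPM keeps no depth, so no counting error can be given. Of 15163 rows, 1 incomplete and 22 date-named ones were dropped, leaving 15140 genes, which made up a share of 0.521 to 0.708 of a library's TPM total. A further 80 columns of no sample were not used, and 3 primordial follicle samples that matched no column were not analysed here. Some pathway genes were likewise not analysed here: 5 of 8 other Tudor genes, 14 of 18 PIWI and piRNA genes and 3 of 4 arginine methylation genes were in the table.

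Log2(TPM + 1) was modelled by group in R 4.3.3 using limma 3.58.1 (trend and robust, Benjamini-Hochberg per comparison). In vitro oocytes (42 libraries, 21 groups) and DIOLs with GV oocytes (26 libraries, 12 groups) were fitted separately, all groups of a fit sharing 1 estimate of spread. Testing was limited to genes reaching 1 TPM in 2 or more libraries of a fit (12306 and 11603). The steps were tested on simulated data. The members and lists were chosen with earlier results of these data known. Genes named were the members, the targets and, per comparison, up to 4 called genes of each other list with the largest change. Also named were the 5 genes of highest Pearson r with each member among those of at least 10 TPM. Predicted genes and pseudogenes, by name, were left out of that search. The genes nearest Tdrd9 in vitro are not reported here. Further list genes, named for moving in several knockouts or to complete a count, were picked after their values were seen. Alternatives were a pseudocount of 0.1, no filter, a replicate block, a single fit over all libraries, rescaling by the median of ratios, no fold threshold, each library left out, and both Sohlh1 libraries left out. A block with crossed numbers was added after seeing the data.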

Additional observations from a re-analysis of the deposited data

Results flagged for a closer look

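In the 10 direct comparisons of knockouts, 3.85% to 30.0% of all genes were called. Effects of 2 knockouts on members differed by such a direct test (limma, adjusted p under 0.05 and a log2 difference of at least 1) in 12 of 60 values. For Tdrd9 these were Lhx8 minus Figla (-1.46), Lhx8 minus Stat3 (1.11), Figla minus Stat3 (2.58), Figla minus Sub1 (1.24) and Stat3 minus Sub1 (-1.33) on day 11, and Nobox minus Dynll1 (-2.10) and Tbpl2 minus Dynll1 (-1.27) on day 13. For Tdrd1 they were Lhx8 minus Sub1 (-1.22) and Stat3 minus Sub1 (-1.43). The others were Tdrd6 for Stat3 minus Sub1 (1.05), Tdrkh for Nobox minus Sohlh1 (1.54) and Tdrd5 for Nobox minus Dynll1 (1.09). The Tdrd6 difference rests on values of at most 1.24 TPM and was not called without any 1 of its 4 libraries.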

How the results depend on the processing

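Members called against wild type numbered 9 higher and 20 lower, and rescaling by the median of ratios gave 4 higher and 24 lower. Rescaled counts of calls higher were 1 in place of 0 between the wild types and 2 in place of 1 for GV and MII. With no fold threshold the calls higher were 2 between the wild types, 16 in knockouts, 14 between knockouts, 26 in DIOL steps and 4 for GV and MII, and the calls lower were 16 between knockouts (6), 9 in DIOL steps (1) and 17 for GV and MII (11). Rescaling changed 13 of 270 single values across the threshold and a pseudocount of 0.1 changed 4. Leaving out 1 library ended 14 calls and made 10. No filter, 1 fit over all libraries and, for in vitro oocytes, leaving out both Sohlh1 libraries changed none of the members' calls, and no call reversed under any of these alternatives. The cause of the changes was not tested. Counts of all genes called moved by over 1.5 times in the knockouts with few calls. Without the Sohlh1 libraries Ell3 had 93 in place of 14, Tcf25 132 (62), Hes6 175 (73), Mef2b 317 (133), Sfr1 330 (152), Foxr1 482 (231), Noto 502 (275), Thap7 545 (337) and Kdm1b 665 (393). With a pseudocount of 0.1 Ell3 had 36, Tcf25 133, Hes6 146, Mef2b 218, Sfr1 271 and Foxr1 387, and with a single fit Tcf25 had 98 and DIOLs day 15 against day 10 had 274 in place of 422. With 1 library left out the counts that moved so far were 2 to 93 for Ell3, 30 to 132 for Tcf25, 29 to 175 for Hes6, 59 to 317 for Mef2b, 63 to 330 for Sfr1, 105 to 482 for Foxr1, 139 to 502 for Noto, 162 to 542 for Thap7, 665 for Kdm1b, 472 for Ccnk (755), 304 for Lhx8 against Stat3 (474), 487 for Stat3 against Sub1 (745) and 259 for DIOLs day 15 against day 10.

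No strong shared shift followed the replicate numbers, since the correlations of same-numbered deviations lay between -0.15 and 0.08. These values cannot show whether same-numbered libraries were made together. With the replicate block the knockout calls were 9 higher and 20 lower as without it, and no member's call changed. Crossing the numbers of DIOLs.S day 7, where the correlation was lowest, changed none of its 6 values' calls. TPM holds no depth, so values near 0, those of Tdrd6 above all, have an unknown counting error. Most groups have 2 libraries.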
